A study of Caenorhabditis elegans with 20 samples.

Results

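The comparison described here set 5 libraries of nhr-131 animals that received F17 against 5 libraries of wild-type animals that received F17. It covers 10 of the 20 libraries of a study of Caenorhabditis elegans, a nematode worm, and 13795 genes with enough counts to be tested. The groups were chosen by their labels, nhr131_F17 against WT_F17. Whole animals at the L4 larval stage had grown in liquid from a synchronized L1 culture. F17, a compound known here only by that code, was given at 2.5 µM for the last 4 h. The other libraries are 5 of nhr-131 animals and 5 of wild-type animals given the solvent DMSO at 0.1% in place of F17, and they share no library with the F17 comparison. The labels call the mutant genotype nhr131 and the replicates biological, and the column names of the deposited counts call the wild type N2. The sources used here give neither the allele nor its outcrossing, so nhr-131 and any other difference between the 2 strains cannot be told apart. Total counts per library were 15836593 to 26908383 in nhr-131 with F17, 14403626 to 22465236 in wild type with F17, 12836432 to 23618692 in nhr-131 with DMSO and 14834464 to 23150429 in wild type with DMSO. Libraries are named by the letters a to e of the deposited table, and the sources used here do not say whether a letter pairs libraries across groups.

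Nuclear hormone receptors are transcription factors that bind small lipophilic molecules, and the worm genome carries an unusually large family of them. Several members switch on enzymes that modify foreign compounds: cytochrome P450 enzymes oxidize them, and UDP-glucuronosyltransferases (UGT) and glutathione S-transferases (GST) join a sugar or glutathione to the product, which is then exported. In larvae the outer epidermis also builds a new cuticle for each molt, first secreting a transient apical matrix and then collagens, with transcripts that rise and fall once per larval stage.

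The transcript of nhr-131 itself was near 0 in the mutant. It had 0, 0.0733, 0.195, 0.195 and 0.234 CPM (counts scaled to a TMM-adjusted library of 1000000) in libraries a to e of nhr-131 with F17, against 6.02, 6.06, 6.99, 7.23 and 6.48 CPM in wild type with F17. No library of one genotype reached the level of the other. The sums were 14 counts in nhr-131 and 650 in wild type, and the share of the wild-type level was 2.06% (95% exact interval 1.12 to 3.47%, covering counting error only). The log2 fold change, mutant over wild type, was -5.50 (SE 0.44, adjusted p = 2.17e-07 by edgeR's quasi-likelihood test with Benjamini-Hochberg adjustment). An exact two-sided permutation test of the 10 libraries gave p = 0.00794, the smallest that 5 libraries against 5 allow. The DMSO libraries showed the same, with 11 counts in nhr-131 and 752 in wild type.

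In F17, 177 genes differed between the genotypes at an adjusted p under 0.05 (1.28% of those tested), 74 of them higher in nhr-131 (0.536%) and 103 lower (0.747%). Genes that pass this threshold of edgeR's test are said to be called, to have risen or to have fallen. In the DMSO libraries the same genotype contrast called 4 genes (0.029%): nhr-131, ZK228.3, ZK228.4 and W02G9.3. At an unadjusted p under 0.05 there were 2065 genes in F17 (15%) and 575 in DMSO (4.17%). The difference of the genotype effects, F17 minus DMSO, was called for 34 genes (0.246%). Most estimates had the same sign with F17 and with DMSO: this held for 147 of the 177 genes called in F17, against 9584 of all 13795 tested.

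The 177 genes were divided by what F17 did in wild type. A gene was taken as not altered when the F17 contrast in wild type had an unadjusted p of at least 0.05 and an absolute log2 fold change under 1, which 12359 genes met. Of those, 75 were called between the genotypes in F17 (0.607%), 33 higher and 42 lower in nhr-131. The other 1436 genes are counted as altered, which means only that they failed this rule. Of them, 102 were called (7.1%), 41 higher and 61 lower. The F17 effect in wild type was itself called at an adjusted p under 0.05 for 46 of the 61, all raised by F17. Among the 41 it was called for 7 raised and 10 lowered by F17. At an adjusted p under 0.05, F17 against DMSO called 66 genes in nhr-131 (0.478%) and 128 in wild type (0.928%). The F17 contrast in wild type shares the WT_F17 libraries with the genotype contrast, so these shares describe and are not tested. Near the border, 13 of the 75 had an unadjusted p for F17 under 0.1, and 20 of the 102 had one of 0.01 or more.

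Among the 75 genes that F17 did not alter, 2 were also called in DMSO, nhr-131 and W02G9.3, and most of the others had an estimate of the same sign there. All 42 that fell in F17 had a negative estimate in DMSO, with a median log2 fold change of -1.17 in F17 and -0.52 in DMSO. Of the 33 that rose, 30 had a positive estimate in DMSO, with medians of 0.85 in F17 and 0.33 in DMSO. In DMSO, 47 of the 75 reached an unadjusted p under 0.05 in the same direction and 0 in the other. Of all 12359 genes not altered, 8918 had the same sign, 429 (3.47%) reached that p in the same direction and 32 in the other. The difference of genotype effects was called for 1 of the 75, E02C12.6. The way the class was made holds wild type with DMSO close to wild type with F17, so this agreement in sign is partly set by that choice. The genes were picked for passing the threshold in F17, which by itself favours larger estimates there, so the medians do not compare the size of the effects. Among the 102 altered genes, 75 had the same sign in DMSO, 22 reached an unadjusted p under 0.05 in that direction and 3 in the other, and the difference of genotype effects was called for 32.

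**Figure D1:**
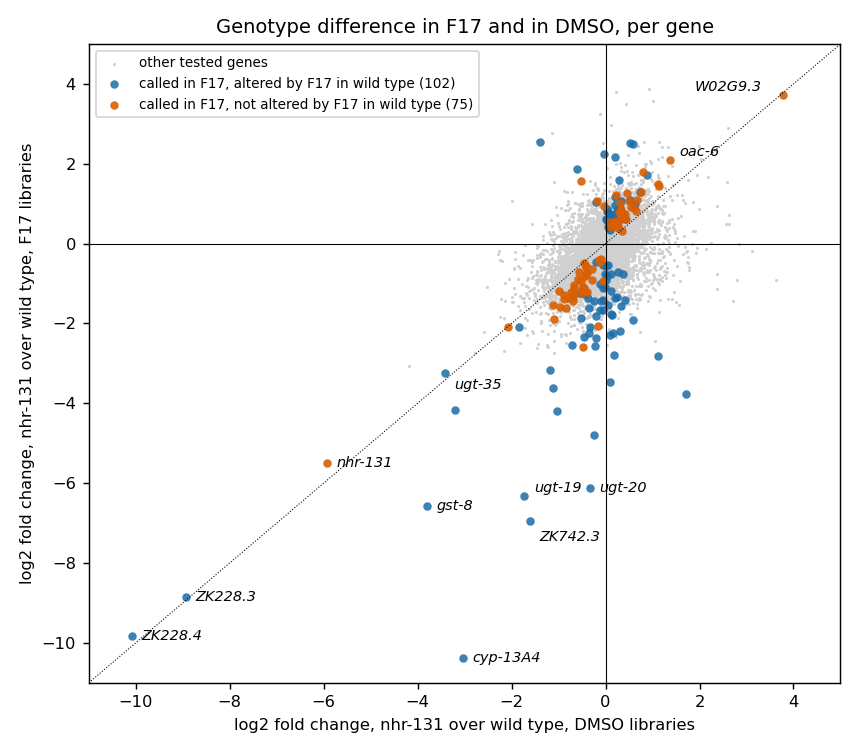
Log2 fold change of each tested gene between nhr-131 and wild type, in the F17 libraries (vertical axis) and in the DMSO libraries (horizontal axis), with the dotted line where both are equal. The 75 called genes counted as not altered by F17 in wild type (orange) lie in the lower left and upper right quadrants with 3 exceptions. Many of the 102 counted as altered (blue) lie near 0 on the DMSO axis (median absolute value 0.25).

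A few genes had a strain difference of similar size with and without F17. W02G9.3, whose function is not annotated in the tables used here, had 14.1, 15.7, 12.4, 17.2 and 13.8 CPM in nhr-131 with F17, against 1.25, 1.35, 0.894, 1.14 and 0.879 CPM in wild type with F17. Every mutant library was several times above every wild-type one. The log2 fold change was 3.73 (SE 0.28, adjusted p = 1.12e-07, edgeR). In DMSO it was 3.79 (SE 0.29, adjusted p = 2.49e-07, edgeR), on levels of 8.85, 13.9, 12.096, 13.3 and 14.5 CPM in nhr-131 against 0.679, 0.313, 1.53, 0.761 and 1.13 CPM in wild type. W02G9.3 rose most of all genes in the class.

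ZK228.3 and ZK228.4, neighbouring genes on chromosome V, were almost without counts in the mutant; they were singled out after their values were seen. ZK228.3 summed to 3 counts over the nhr-131 libraries with F17 and 1640 over wild type with F17, or 0.0588, 0.0367, 0, 0 and 0.0584 CPM against 19, 10.7, 12.7, 25.2 and 16 CPM. ZK228.4 summed to 2 counts in nhr-131 and 2355 in wild type, with 0, 0, 0.0977, 0 and 0 CPM in nhr-131 and 21.2, 19.6, 23.5, 28.4 and 25.9 CPM in wild type. The mutant level was 0.175% of wild type for ZK228.3 (95% exact interval 0.036 to 0.511%, counting error only) and 0.0811% for ZK228.4 (0.00981 to 0.293%). Without F17 the mutant level was 0.182% of wild type for ZK228.3 (0.0591 to 0.426%), from 5 counts against 3024. For ZK228.4 it was 0.0783% (0.0161 to 0.229%), from 3 counts against 4223. Both genes count as altered by F17 in wild type only through unadjusted p-values, with log2 fold changes of -0.88 and -0.91 and adjusted p of 0.431 and 0.211 (edgeR).

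A further gene nearby was also without counts. The chemoreceptor gene srw-82, 7 coding genes before ZK228.4, had 0 counts in nhr-131 with F17 and 39 in wild type with F17. With DMSO it had 0 counts in nhr-131 and 46 in wild type. It was too low to be tested. With a floor of 3 counts in place of 0, it was 13.6-fold lower in nhr-131 with F17 and 13.9-fold lower with DMSO. The lower ends of the 95% exact intervals were 10.6-fold with F17 and 10.9-fold with DMSO, counting error only. The nearest well-counted genes on either side were present in both genotypes: ZK262.3 had 147 counts in nhr-131 with F17 and 164 in wild type with F17, and Y51A2D.18 had 1743 counts in nhr-131 and 2124 in wild type. In the whole table, 13 genes had at most 3 counts in one F17 group and at least 30 in the other. Of these, ZK218.7, also on chromosome V, was likewise at 0 in both mutant groups, with 0 counts in nhr-131 against 45 in wild type in F17, and 0 against 24 in DMSO, where 2 wild-type libraries had any. ZK218.5, close to it, was near 0 in both mutant groups. It had 3 counts in nhr-131 against 56 in wild type in F17, and 1 against 38 in DMSO, where 3 wild-type libraries had any. Gene names, chromosomes and order are those of the Ensembl WBcel235 annotation.

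The putative acyltransferase gene oac-6 rose next most in the class. It had 28.3, 33.3, 26.4, 34.1 and 26.3 CPM in nhr-131 with F17 and 4.54, 6.44, 7.39, 5.71 and 10.5 CPM in wild type with F17. The lowest mutant library stood above the highest wild-type library. The log2 fold change was 2.10 (SE 0.26, adjusted p = 6.34e-05, edgeR), and in DMSO it was 1.37 (SE 0.25, adjusted p = 0.0826). E02C12.6 behaved otherwise. It had 8.82, 9.86, 10.5, 6.72 and 7.59 CPM in nhr-131 with F17 and 2.82, 1.79, 2.32, 5.46 and 2.25 CPM in wild type with F17, with no overlap. In DMSO its levels were 1.13, 0.88, 1.18, 2.01 and 1.57 CPM in nhr-131 and 2.19, 1.25, 2.71, 1.71 and 1.92 CPM in wild type, groups that overlapped. Its genotype effect was 1.57 in F17 (SE 0.30, adjusted p = 0.0089, edgeR) and -0.53 in DMSO. The difference was 2.09 (SE 0.43, adjusted p = 0.0422, edgeR). F17 against DMSO changed it by 2.67 within nhr-131 (SE 0.31, adjusted p = 3.58e-05).

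**Figure D2:**
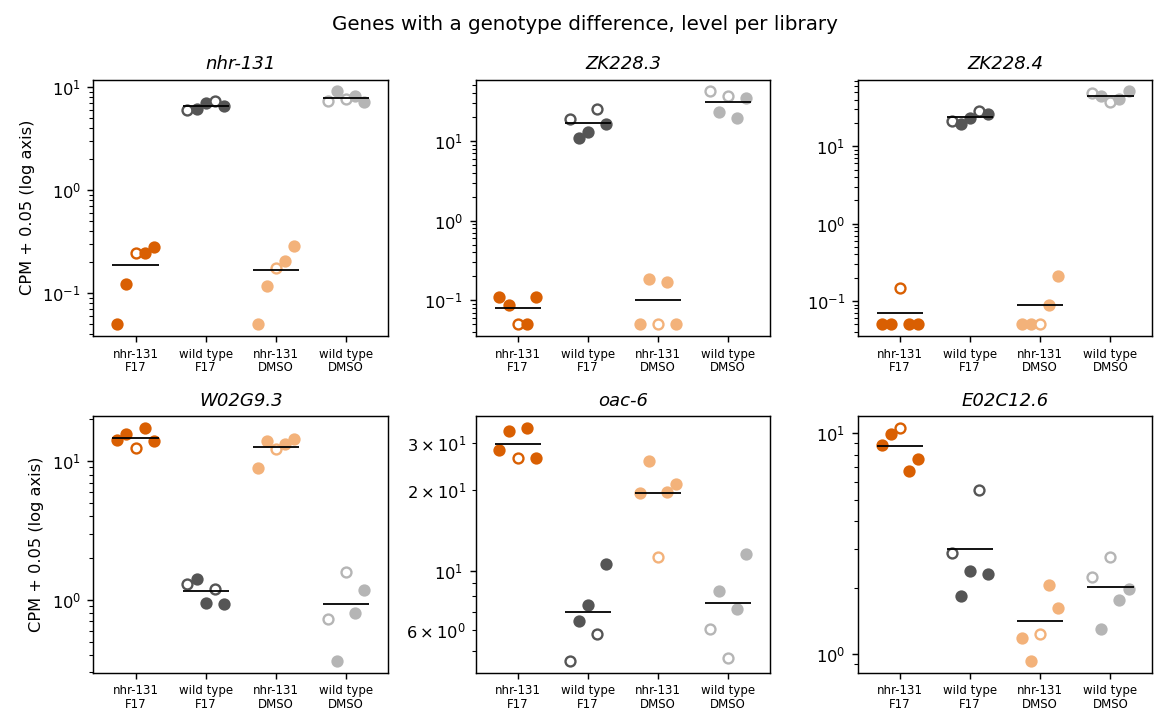
Level of 6 genes in each of the 20 libraries, as CPM plus 0.05 on a log axis, with 5 libraries (points, a to e from left to right) and their mean (line) per group. Open points are the 6 libraries with low vitellogenin transcripts. The nhr-131, ZK228.3, ZK228.4, W02G9.3 and oac-6 panels separate the genotypes in F17 as well as in DMSO, apart from oac-6 in DMSO, where the lowest mutant library (11.2 CPM) lies just under the highest wild-type one (11.5 CPM), and E02C12.6 separates them in F17.

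Several of the falls were in genes of the apical matrix and cuticle. The annular furrow collagens DPY-2, DPY-3, DPY-7, DPY-8, DPY-9 and DPY-10 form the circumferential grooves of the cuticle, and 4 of these 6 fell: dpy-2, dpy-7, dpy-9 and dpy-10. Also lower were lpr-3, lpr-4 and lpr-5, lipocalin-related proteins of the apical matrix, noah-1 and noah-2, zona pellucida domain proteins of the transient precuticle, and the hedgehog-related wrt-10 and patched-related ptr-10. These 11 genes were gathered after their values were seen and are no measure of the cuticle genes at large. The list of 157 tested cuticle collagen genes, which takes in the dpy genes, had 5 called lower (background 0.747%) and 2 called higher (0.536%). Its estimates leaned the other way, 93 positive and 64 negative, with a median of 0.21 in F17 and 0.22 in DMSO, and at an unadjusted p under 0.05 it had 20 higher and 14 lower. Without the 6 libraries of low vitellogenin described below, 13 of 159 were called higher and 2 lower (edgeR). That fit called more genes throughout, 650 higher and 369 lower. For the 11 genes, log2 fold changes in F17 were -1.59 to -1.10, and those in DMSO were -0.97 to -0.51. In DMSO 10 of the 11 had an unadjusted p under 0.05 (edgeR), beside 270 lower genes among all 13795 tested. F17 against DMSO gave -0.16 to 0.01 in wild type, and -0.76 to -0.55 in nhr-131 where none of the 11 was called.

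For dpy-10 the levels were 40.6, 69.8, 84.1, 74 and 118 CPM in nhr-131 with F17 and 204, 179, 128, 293 and 182 CPM in wild type with F17. The highest mutant library, e, stayed under the lowest wild-type one, c. The log2 fold change was -1.35 (SE 0.30, adjusted p = 0.0267, edgeR). In DMSO, dpy-10 had 139.8, 147, 60.8, 84.6 and 157 CPM in nhr-131 and 236, 164, 204, 143 and 274 CPM in wild type, with mutant libraries c and d lowest and libraries b and e of nhr-131 above library d of wild type. The furrow collagen gene dpy-9 had 20.8, 40.5, 45.5, 51.5 and 77.3 CPM in nhr-131 with F17 and 154, 115, 80.3, 179 and 109 CPM in wild type with F17 (log2 fold change -1.44, SE 0.32, adjusted p = 0.029, edgeR). Its mutant library e lay just under wild-type library c. The estimates were -1.25 for dpy-7 (adjusted p = 0.0261, edgeR) and -1.25 for dpy-2 (adjusted p = 0.0217). The other furrow collagens had estimates of the same size that missed the threshold, -1.29 for dpy-3 (SE 0.34, adjusted p = 0.0735, edgeR) and -1.21 for dpy-8 (SE 0.37, adjusted p = 0.121).

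The lipocalin-related lpr-3 had 80.7, 145, 213, 189.6 and 297 CPM in nhr-131 with F17 and 506, 449.7, 311, 741 and 413 CPM in wild type with F17, without overlap. Its log2 difference was -1.39 (SE 0.32, adjusted p = 0.0363, edgeR). lpr-4 and lpr-5, adjacent on the X chromosome, gave -1.35 (adjusted p = 0.0294) and -1.21 (adjusted p = 0.0299). For noah-2 the levels were 198, 279.8, 319, 304 and 539 CPM in nhr-131 with F17 and 837, 732, 467, 899 and 720.3 CPM in wild type with F17. Here mutant library e exceeded wild-type library c, so the groups overlapped, and the log2 fold change of -1.16 (SE 0.28, adjusted p = 0.0478, edgeR) lay close to the threshold. wrt-10 had the largest fall of the 11, with 28.8, 51.6, 78.8, 64.3 and 90.1 CPM in nhr-131 with F17 and 266, 147, 111, 288 and 133 CPM in wild type with F17 (log2 fold change -1.59, SE 0.35, adjusted p = 0.0267, edgeR). Its wild-type libraries a and d stood above the other wild-type ones. ptr-10 gave -1.29 (adjusted p = 0.0478), and dpy-31, a procollagen-processing protease, gave -0.58 (adjusted p = 0.0422).

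**Figure D3:**
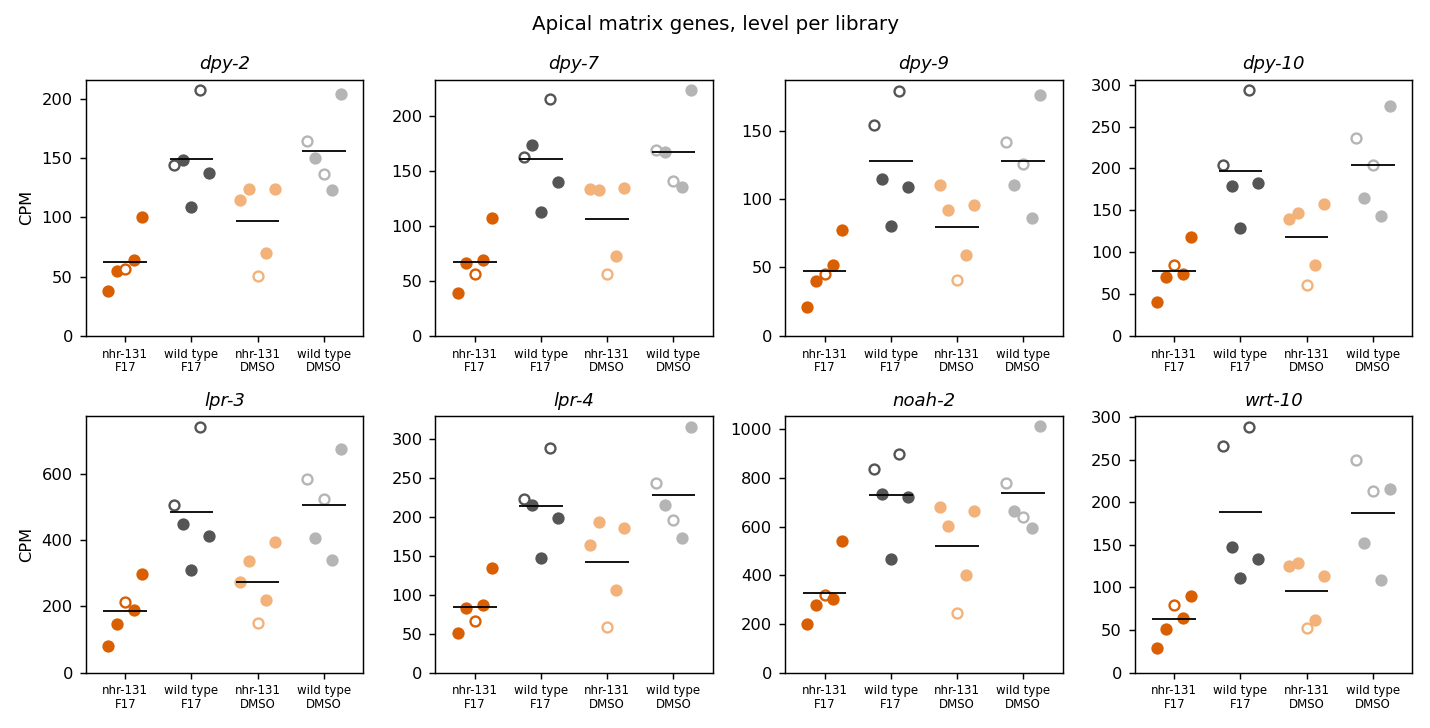
Level of 8 apical matrix genes in each of the 20 libraries, in CPM on a linear axis from 0, with 5 libraries (points, a to e from left to right) and their mean (line) per group. Open points are the 6 libraries with low vitellogenin transcripts. In F17 the nhr-131 libraries lie below the wild-type libraries apart from an overlap for noah-2, library e is the highest mutant library, and in DMSO the mutant means lie between those of nhr-131 with F17 and wild type.

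The libraries differed in transcripts that mark developmental stage. The summed level of the 6 vitellogenin transcripts, yolk proteins made as animals become adult, was 11.6 to 98.6 CPM in 6 libraries and 401 to 3872 CPM in the other 14. The 6 low libraries, which earlier work on these data had called younger, are library c of nhr-131 and libraries a and d of wild type among those with F17, and library c of nhr-131 and libraries a and c of wild type among those with DMSO. Without them all 11 matrix genes kept a negative estimate, -1.15 to -0.94, but only lpr-5 was still called (adjusted p = 0.0473, edgeR), the others having adjusted p up to 0.102. With a score of 12 genes that change from L4 to adult as a covariate, 10 of the 11 were called. That score takes in the 6 vitellogenins, and among the F17 libraries the low ones scored lowest. Among the DMSO libraries it did not set them apart. There low library c of wild type scored -0.353, above library e of that group at -0.396. The list of 20 molting-cycle genes had 5 called, all lower, and 17 negative estimates, with a median log2 fold change of -0.75 in F17 and -0.14 in DMSO, against -0.03 over all tested genes in F17. The 5 are dpy-7, dpy-10, lpr-3, noah-1 and noah-2, all of them among the 11 above, so the list is no separate evidence. Its summed level was 2742, 3296, 3359, 3344 and 5338 CPM in libraries a to e of nhr-131 with F17 and 6759, 6837, 5114, 8361 and 6858 CPM in wild type with F17, so library e of the mutant exceeded library c of wild type. In DMSO the sums were 2904 to 6213 CPM in nhr-131 and 6274 to 8955 CPM in wild type, which did not overlap. The part of stage in these differences was not tested. In whole animals, fewer cells of a type and less RNA per cell cannot be told apart.

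Other genes that F17 did not alter and that fell have varied roles or none known. Y39B6A.9 had 1.41, 2.2, 1.66, 0.925 and 0.934 CPM in nhr-131 with F17 and 7.19, 4.66, 4.83, 2.66 and 7.2 CPM in wild type with F17. The groups did not overlap although wild-type library d was near the mutant ones, and the log2 fold change was -1.88 (SE 0.42, adjusted p = 0.029, edgeR). The C-type lectin gene clec-169 had 2.59, 2.16, 1.95, 2.58 and 2.57 CPM in nhr-131 with F17 and 6.33, 6.01, 5.28, 4.02 and 6.26 CPM in wild type with F17. The groups did not overlap, and the log2 fold change was -1.23 (SE 0.18, adjusted p = 7.56e-04, edgeR). It was -0.66 in DMSO (SE 0.18, adjusted p = 0.674). Lowly counted B0205.4 and T26E4.4 gave -1.62 (adjusted p = 0.0483) and -1.55 (adjusted p = 0.0468). The acyl-CoA synthetase gene acs-3 gave -0.91 (adjusted p = 0.0294).

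Some further falls in the class were noted after their values were seen. cky-1, a bHLH-PAS transcription factor, had the largest after nhr-131, -2.59 (SE 0.49, adjusted p = 0.00824, edgeR), on levels of 0.176, 0.183, 0.0489, 0.146 and 0.35 CPM in nhr-131 with F17 against 0.626, 1.46, 0.934, 1.14 and 1.37 CPM in wild type with F17. The P450 gene cyp-29A3 had the same estimate with F17 and with DMSO, -2.08 in F17 (SE 0.50, adjusted p = 0.0449) and -2.08 in DMSO (SE 0.51, adjusted p = 0.674). egg-6, an extracellular leucine-rich repeat protein of epithelial apical matrix, gave -0.94 (adjusted p = 0.0297), and mua-6, an intermediate filament protein of the hypodermis, gave -0.50 (adjusted p = 0.0439). The ATP-citrate lyase gene acly-2 gave -0.76 (adjusted p = 0.0343), and the annexin gene nex-1 gave -0.64 (adjusted p = 0.0449).

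The rises in the class were smaller on the whole. The cuticle collagen gene col-162 moved opposite to the furrow collagens, with 128, 222, 264, 269 and 140.4 CPM in nhr-131 with F17 and 88.5, 50.7, 105, 62.4 and 72.3 CPM in wild type with F17. The lowest mutant library was above the highest wild-type one, and the log2 fold change was 1.43 (SE 0.32, adjusted p = 0.03003, edgeR) in F17 and 1.14 (SE 0.32, adjusted p = 0.716) in DMSO. It is one of the 2 rises in the cuticle collagen list, and one of the 5 falls there is the protease gene dpy-31. The UGT gene ugt-53 had 46.9, 44.4, 41.1, 48.4 and 39 CPM in nhr-131 with F17 and 24.6, 13.3, 17, 30.6 and 18.8 CPM in wild type with F17, without overlap. Its log2 fold change was 1.07 in F17 (SE 0.20, adjusted p = 0.00711, edgeR) and -0.19 in DMSO, and the difference of 1.26 had an adjusted p of 0.0887.

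F27D9.2 had 22.4, 19.2, 10.7, 19.4 and 16.1 CPM in nhr-131 with F17 and 8.92, 5.95, 8.41, 8.5 and 9.34 CPM in wild type with F17, where the lowest mutant library, c, still exceeded every wild-type one. Its log2 fold change was 1.09 (SE 0.18, adjusted p = 0.00182, edgeR). C18H9.6 gave 0.95 (SE 0.17, adjusted p = 0.00616), with 35.1 ± 10.2 CPM in nhr-131 with F17 and 18.1 ± 2.06 CPM in wild type with F17 (SD, n = 5 each). The chemoreceptor gene str-168 gave 1.23 (adjusted p = 0.0388). The ABC half-transporter gene haf-7 rose by 0.54 (adjusted p = 0.0449), the receptor gene nhr-31 by 0.43 (adjusted p = 0.0461) and math-35, annotated as a pseudogene, by 1.01 (adjusted p = 0.0267).

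Seen after the values, the class also held rises of gpdh-1, whose enzyme makes glycerol under osmotic stress, at 1.27 (SE 0.25, adjusted p = 0.0108, edgeR), and trx-3, a thioredoxin, at 1.5 (SE 0.31, adjusted p = 0.0173). gpdh-1 had 136, 123, 62.3, 123 and 108 CPM in nhr-131 with F17 and 39.1, 40.3, 66.7, 25.4 and 58.2 CPM in wild type with F17. Mutant library c lay within the wild-type range, the other 4 above it. Small rises with tight replicates included rpc-2, a subunit of RNA polymerase III, at 0.62 (SE 0.10, adjusted p = 0.0015), the aminopeptidase gene lap-1 at 0.57 (adjusted p = 0.00503) and the copper transporter gene cua-1 at 0.45 (adjusted p = 0.011). byn-1 and tag-151, both of which act in ribosome biogenesis, gave 0.42 (adjusted p = 0.00601) and 0.43 (adjusted p = 0.0267).

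Among genes counted as altered by F17 in wild type, the largest fitted falls were those of cyp-13A4 and of ZK228.4 and ZK228.3, described above. ZK742.3 and detoxification genes of the GST and UGT families came next. Their levels in nhr-131 with F17 were, for most, near those in nhr-131 with DMSO. The F17 effects in wild type and in nhr-131 each share libraries with the genotype contrast, so they are given only side by side. cyp-13A4, a cytochrome P450, had 0.706, 0.88, 2.15, 0.974 and 1.34 CPM in nhr-131 with F17 and 1152, 1503, 1889.5, 1709 and 1897 CPM in wild type with F17. The highest mutant library, c, was far below the lowest wild-type library, a. The log2 fold change was -10.39 (SE 0.96, adjusted p = 1.75e-06, edgeR), and the F17 effect was 0.77 in nhr-131 and 8.12 in wild type. ugt-20 had 4.41, 4.4, 4.2, 4.29 and 2.98 CPM in nhr-131 with F17 and 239, 248, 287, 323 and 314 CPM in wild type with F17, and the log2 difference was -6.12 (SE 0.24, adjusted p = 7.66e-12, edgeR). Its neighbour ugt-19 gave -6.31 (SE 0.59, adjusted p = 1.75e-06), with 15.2 ± 1.76 CPM in nhr-131 and 1207 ± 151 CPM in wild type (SD, n = 5 each).

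gst-8 had 1.24, 0.88, 1.12, 0.828 and 1.28 CPM in nhr-131 with F17 and 117, 78.9, 104, 101 and 107 CPM in wild type with F17, and its log2 difference was -6.57 (SE 0.58, adjusted p = 8.95e-07, edgeR). In contrast to cyp-13A4, F17 also raised it in nhr-131, where its level with DMSO was 0.188, 0, 0, 0.118 and 0.0787 CPM, by a fitted 3.82 (SE 0.82, adjusted p = 0.0382), beside 6.58 in wild type. ZK742.3 gave -6.95 (SE 0.54, adjusted p = 1.71e-07), cyp-13A5 -4.20 (adjusted p = 3.99e-05) and the sugar transporter gene swt-6 -4.80 (adjusted p = 1.12e-07). C53B4.3 had 40.2, 40.2, 28.4, 41.7 and 32.2 CPM in nhr-131 with F17 and 264, 405, 456, 402 and 486 CPM in wild type with F17, so the log2 difference was -3.46 (SE 0.16, adjusted p = 1.00e-10, edgeR). In DMSO its genotype effect was 0.10 (SE 0.15).

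For several of these genes the DMSO controls of wild type were uneven. cyp-13A4 had 1.04, 1.08, 0.632, 0.433 and 0.472 CPM in nhr-131 with DMSO and 15.2, 1.02, 11.6, 0.333 and 1.01 CPM in wild type with DMSO. Libraries a and c of wild type, both among the 6 with low vitellogenin, stood above the other 3. The same libraries were high for ZK742.3, with 10.6, 10.2, 10.5, 9.44 and 11.2 CPM in nhr-131 and 64.2, 11.6, 59.5, 10.03 and 12.4 CPM in wild type, and for ugt-19, with 9.79, 14.2, 9.27, 9.05 and 13.3 CPM in nhr-131 and 79.4, 10.5, 72.6, 9.22 and 12 CPM in wild type. In the other 3 wild-type libraries these genes were close to the mutant level. The genotype effects in DMSO were -3.04 for cyp-13A4, -1.61 for ZK742.3 and -1.73 for ugt-19, none of which was called (adjusted p = 0.674, 0.674 and 0.716, edgeR).

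Counts by family are set beside the share of all tested genes that fell, 0.747%, and that rose, 0.536%. Of 61 tested P450 genes, 8 fell and 3 rose in nhr-131 with F17. The falls were cyp-13A4, cyp-13A5, cyp-13A6, cyp-13A7, cyp-13A8, the pseudogene cyp-13A9, cyp-13B1 and cyp-29A3, and the rises were cyp-35A5 (1.29), cyp-35B2 (2.23) and cyp-35C1 (0.84). Of 60 UGT genes, 7 fell and 7 rose. The falls, from -6.31 for ugt-19 to -1.40 for ugt-1, were larger than the rises, from 0.63 for ugt-46 to 1.16 for ugt-16. Of 32 GST genes, 4 fell, gst-5 to gst-8, and 0 rose. The number of rises depended on the fit. Without the 6 libraries of low vitellogenin, 15 of 60 P450, 18 of 57 UGT and 4 of 31 GST genes rose. The falls there numbered 8, 10 and 4 (edgeR). That fit called more genes throughout, 650 higher and 369 lower. DESeq2 called 11 P450 rises and 9 falls, among 294 genes called higher and 243 lower in all. The shares above are therefore no background for these counts. gst-5 was raised by F17 in both genotypes, by 2.55 in nhr-131 and 3.90 in wild type, and its genotype effect was -1.45 (SE 0.16, adjusted p = 2.68e-05, edgeR). gst-5, gst-6 and gst-7 are also on the list of SKN-1 and oxidative stress genes, where they were the 3 of 20 that fell. cyp-13A4 to cyp-13A8 lie in a row on chromosome II, as do gst-6, gst-7 and gst-8, and ugt-19 and ugt-20 are neighbours on chromosome IV. The sources used here do not say how reads shared by such similar copies were counted, so the split among neighbours is uncertain.

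Of the metal-response list, 2 of 7 fell: mtl-2, a metallothionein, at -2.18 on the log2 scale (SE 0.45, adjusted p = 0.0184, edgeR) and the cadmium-responsive cdr-4 with -1.81 (SE 0.23, adjusted p = 9.06e-05). Of 104 C-type lectin genes, clec-72, clec-78 and clec-169 fell and clec-206 rose. Of 182 nuclear hormone receptor genes, nhr-131 and nhr-40 fell and nhr-31 rose, shares near those of all genes, and nhr-40 gave -0.55 (SE 0.11, adjusted p = 0.0178, edgeR). The saposin-like spp-2 gave -1.43 (adjusted p = 0.00233), and hsp-4, the chaperone BiP of the endoplasmic reticulum, gave -0.45 (adjusted p = 0.0329).

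**Figure D4:**
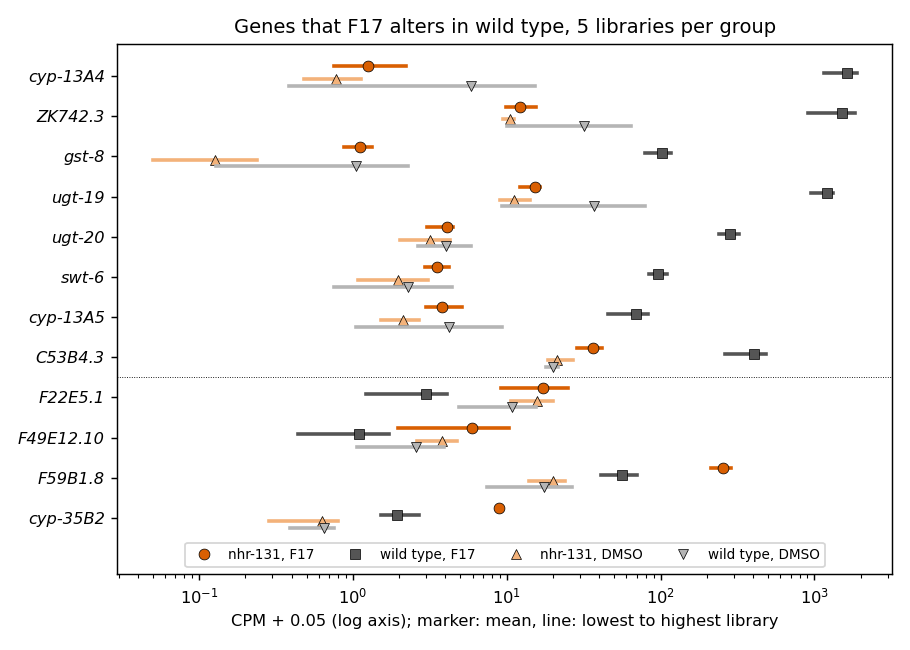
Level of 12 genes counted as altered by F17 in wild type, as CPM plus 0.05 on a log axis. Each group has its mean (marker) and the lowest to highest of 5 libraries (line), with falls above the dotted line and rises below it. For the falls, wild type with F17 stands to the right of the other 3 groups, and for F59B1.8 and cyp-35B2 nhr-131 with F17 does.

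The 41 rises among altered genes included genes that F17 lowered in wild type and genes that it raised. F22E5.1 had 17.2, 18.4, 9.09, 24.8 and 16 CPM in nhr-131 with F17 and 1.17, 2.65, 2.92, 4.06 and 3.9 CPM in wild type with F17, without overlap. Its log2 fold change was 2.52 (SE 0.35, adjusted p = 3.42e-04, edgeR), and the F17 effect was 0.13 in nhr-131 and -1.86 in wild type. The difference of these was not called (adjusted p = 0.171). Of the 177 genes, 10 were higher in the mutant and also called lower by F17 in wild type. F49E12.10 gave 2.48 (adjusted p = 0.0143), on 10.3, 6.96, 1.91, 7.45 and 2.92 CPM in nhr-131 with F17 and 0.391, 1.57, 1.67, 0.423 and 1.15 CPM in wild type with F17. Its F17 effects were 0.65 in nhr-131 and -1.25 in wild type, neither of which was called.

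A further 7 of the 177 were higher in the mutant and called higher by F17 in wild type, and each of them was also called higher by F17 in nhr-131. cyp-35B2 had 8.59, 8.98, 9.19, 8.82 and 8.88 CPM in nhr-131 with F17 and 1.72, 1.57, 1.46, 2.62 and 2.03 CPM in wild type with F17. Its genotype effect was 2.23 (SE 0.25, adjusted p = 2.46e-05, edgeR), beside F17 effects of 3.90 in nhr-131 and 1.64 in wild type. F59B1.8 had 284, 266, 214, 288 and 218 CPM in nhr-131 with F17 and 41.2, 52.8, 68.6, 47.3 and 70.5 CPM in wild type with F17, so its log2 difference was 2.18 (SE 0.29, adjusted p = 1.96e-04, edgeR). clec-206 gave 1.58 (SE 0.18, adjusted p = 3.63e-05), with F17 effects of 6.58 in nhr-131 and 5.29 in wild type. On the other side, 46 genes called higher by F17 in wild type were lower in nhr-131 with F17. F17 against DMSO was also called within nhr-131 for 12 of these 46. Their median F17 effect was 0.74 in nhr-131 and 2.70 in wild type.

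Lists of tissue and stage genes differed in their calls. The hypodermis, the epidermis that makes the cuticle, had 2 of 10 list genes called, both lower, dpy-7 and wrt-10 of the matrix genes above. Of its estimates 9 were negative, with a median of -0.39 in F17 and -0.40 in DMSO, and without the 6 libraries of low vitellogenin 0 were called lower and 1 higher (edgeR). Of the vitellogenins 0 of 6 were called, with 6 positive estimates and a median log2 fold change of 3.02. vit-2 had 599, 1158, 2.05, 1335 and 409 CPM in nhr-131 with F17 and 14, 143, 315, 20.4 and 232 CPM in wild type with F17. Library c of nhr-131 and libraries a and d of wild type are the low ones. Without the 6 low libraries 5 of the 6 vitellogenins were called higher in nhr-131 (edgeR), in a fit that called 650 genes higher. All 30 major sperm protein genes had negative estimates (median -0.66), as did 18 of 19 germline genes (median -0.81), and 0 of either list were called. Their medians in DMSO were 0.17 and -0.39. The summed major sperm protein level averaged 249 CPM in nhr-131 and 396 CPM in wild type with F17. With DMSO it averaged 223 CPM in nhr-131 and 198 CPM in wild type. The body wall muscle list had 0 of 10 called (median -0.02), the neuron list 0 of 12 (median -0.13), the pharynx list 0 of 10 (median -0.68) and the intestine list 1 of 9, mtl-2 (median 0.12). Of 69 ribosomal protein genes 0 were called, with 66 negative estimates and a median of -0.15 in F17 and 0.12 in DMSO. The median over all tested genes was -0.03.

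Chromosome V, which carries nhr-131, held 59 of the called genes with a known place, or 33.5%, against 19.8% of the tested genes. Among the called genes that F17 did not alter it held 31.1%. Counts of genes whose libraries did not overlap between the genotypes in F17 were 533 of all tested genes (3.86%), 237 higher (1.72%) and 296 lower (2.15%).

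**Figure D5:**
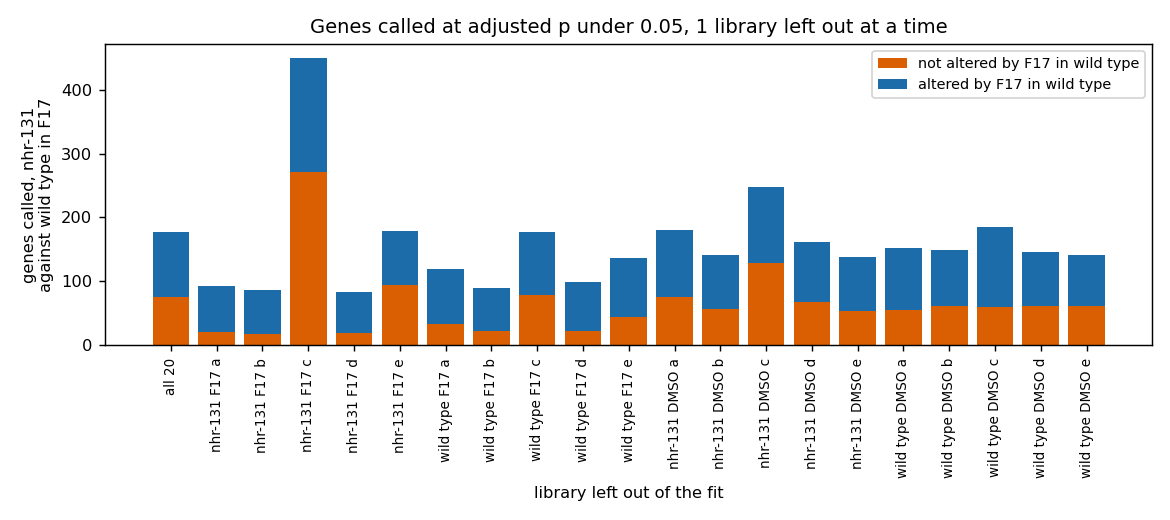
Number of genes called between nhr-131 and wild type in F17 with all 20 libraries and with 1 library left out of the fit at a time. Bars are split by whether the gene counted as altered by F17 in wild type. The total is 177 with all libraries, 83 without library d of nhr-131 with F17 and 449 without library c of that group, and the count of genes not altered by F17 (orange) varies more than the rest.

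The count of calls rested on single libraries. Without library c of nhr-131 with F17, the one mutant F17 library with low vitellogenin, 449 genes were called, and 271 of them were in the class that F17 did not alter. Without library a, b or d of that group 92, 86 or 83 were called, and without library a, b or d of wild type with F17 120, 90 or 99. Under the 32 alternatives none of the 177 calls reversed its sign. The genes were picked for passing the threshold in these same libraries, so reversals were unlikely from the start. Calls were kept under every alternative in which the gene was tested for 57 of the 102 altered genes. The same held for 12 of the 75 that F17 did not alter. Those 12 were nhr-131, cky-1, clec-169, Y38H6C.16, lap-1, rpc-2, C18H9.6, ugt-53, F27D9.2, E02C12.6, oac-6 and W02G9.3. Of these, cky-1 was tested under 31 of the 32 alternatives, as were cyp-13A8, cyp-13A9, ugt-35 and T08D10.3 of the 57. Each of the matrix genes lost its call under some of the alternatives.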

How the data were processed

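Whole-animal RNA was purified with poly(A) beads and made into strand-marking libraries, per the labels' protocols. The deposited values are whole counts per gene, 28301 genes by 20 libraries, made by the authors with TopHat2 and HTSeq per the submitters' processing notes. For versions, genome build, annotation and the use of strand in counting, the entry is not given in the sources used here. Coordinates are left out for that reason, and genes that overlap others are uncertain.

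The tools were edgeR 4.0.16 in R 4.3.3, with DESeq2 1.42.0 and voom of limma 3.58.1 as alternatives. filterByExpr (minimum count 10, by group) kept 13795 genes. A single quasi-likelihood model with 4 group means and TMM factors was fitted to all 20 libraries, with 16 residual degrees of freedom. Contrasts were tested by edgeR's F-test with Benjamini-Hochberg adjustment over all tested genes, and called at an adjusted p under 0.05. SE, the standard error, is the size of the log2 fold change over the root of its F statistic. CPM use TMM-scaled library sizes. The p-values measure the spread between libraries, described by the labels as biological replicates. The procedure was tested on simulated data.

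Genes were named by a rule: nhr-131, then, among called genes averaging a log2 CPM of 1 or more and without overlap of the F17 libraries, the 8 largest falls and 8 largest rises that F17 did not alter in wild type, the 8 falls and 4 rises that it did, and up to 4 called genes of each of 42 lists. Genes outside it were chosen with their values in view or complete a list of called genes, and not all are marked where they appear. The members and lists were chosen with earlier results of these data known. Annotation matched 13551 tested genes, and 9 list names were absent from the table. A row name reads as a date in 10 cases. The closest libraries of a group had a chi-square per degree of freedom of 20.9, so none was a copy. The letters a to e were not matched to the labels' replicate numbers. Same-letter libraries of the F17 groups had correlations of -0.68 to 0.29 in their deviations from the group means. Exact intervals are 95% and the floor is 3 counts, and both cover counting error only. Alternatives varied scaling, filter, test, libraries, covariates and thresholds.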

Additional observations from a re-analysis of the deposited data

Results flagged for a closer look

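In 8 of 106 groups of 5 F17 libraries examined for the named genes, 1 library stood apart from the other 4 by Dixon's ratio (above 0.71), and chance flags about 1 in 20 groups. In nhr-131 with F17 these were library c for B0205.4 (3.32 CPM, the highest), cyp-13A7 (4.84 CPM, the highest) and ugt-12 (95.5 CPM, the highest), library a for ugt-19 (12.12 CPM, the lowest) and library e for ugt-20 (2.98 CPM, the lowest). In wild type with F17 they were library d for E02C12.6 (5.46 CPM, the highest), library b for F27D9.2 (5.95 CPM, the lowest) and library a for ugt-19 (945 CPM, the lowest). The nhr-131 library c is the mutant F17 library with low vitellogenin.

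For 14 named genes the genotype effect differed between F17 and DMSO at an adjusted p under 0.05 by edgeR's test of the difference. The difference, F17 minus DMSO on the log2 scale, was negative for 11 of them: -7.35 for cyp-13A4, -5.79 for ugt-20, -5.34 for ZK742.3, -4.58 for ugt-19, -4.56 for swt-6, -3.56 for C53B4.3, -3.16 for cyp-13A5, -2.38 for gst-7, -2.33 for ugt-12, -1.59 for cdr-4 and -1.35 for gst-5. It was positive for 3, at 2.26 for cyp-35B2, 2.09 for E02C12.6 and 1.98 for F59B1.8. E02C12.6 is the only one of the 14 that F17 did not alter in wild type by the rule used here.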

How the results depend on the processing

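The 177 genes called in F17 (74 higher, 103 lower), with 75 in the class that F17 did not alter (33 higher, 42 lower), and the 34 called for the difference of effects varied with the processing. DESeq2's Wald test called 537 (294 higher, 243 lower), with 314 in the class (173 and 141), 52 for the difference, 11 in DMSO and 9 the same way in F17 and DMSO. Without the 6 libraries with low vitellogenin the numbers were 1019 (650 and 369), 403 (265 and 138), 116, 11 and 7. With the age score as covariate 273 were called (125 higher). With the 10 F17 libraries alone 107 were called (41 and 66), 28 of them in the class (13 and 15). At an adjusted p under 0.01 there were 72 (25 and 47), with 13 in the class (9 and 4) and 14 for the difference. With a 2-fold minimum there were 105 (27 higher), with 40 in the class (13 and 27). Without a filter, 67 fell, and the class held 39 (21 and 18). The letter as replicate block gave 187 (71 and 116) and 20 for the difference. Whether the letters pair libraries is not stated, so it is only a check. The class held 95 (52 higher) when defined by an interval within -1 and 1, 114 (57 higher) by an adjusted p of at least 0.05, and 49 (24 lower) when F17 altered the gene in neither genotype. Leaving out 1 library at a time gave 83 to 449 called (32 to 243 higher, 51 to 206 lower), 18 to 271 in the class (13 to 141 higher, 5 to 130 lower) and 19 to 31 for the difference. The log2 fold change of nhr-131 was -5.73 to -5.22. No call reversed its direction, which the choice of called genes made unlikely from the start. The causes were not tested. The genotype contrast in DMSO called 4 genes with the 10 DMSO libraries alone, a fit added after the data were seen. Scaling moved the median of all genes to between -0.07 and -0.03. Depth limits genes with few counts, such as cky-1 and srw-82.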
